A study of Mus musculus with 12 samples.

Results

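The early secretory pathway carries new proteins between the endoplasmic reticulum and the Golgi in coated vesicles. The COPII coat, assembled at exit sites by the small GTPase Sar1, buds vesicles that leave the endoplasmic reticulum, and cargo receptors select what they carry. The COPI coat, recruited by ARF GTPases, returns escaped residents and receptors, among them the KDEL receptors, which bind the retrieval signal of resident chaperones, and the p24 proteins that cycle with both coats. Thyroid follicular cells pass large amounts of thyroglobulin, the precursor of thyroid hormone, through this route. The 38 genes described here encode the subunits of both coats and their GTPases, organizers, receptors and p24 partners. They were chosen by gene symbol, and all 38 were found among the 55536 genes of the table.

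The 12 mouse thyroids were sequenced as 1 library each from rRNA-depleted total RNA, to compare 5 affected mice, labeled as having thyroid dysplasia, with 7 unaffected mice. Affected mice were C57BL/6NTac (B6NTac), the colony in which a LINE-1 insertion in *Tg* was found. Of the unaffected mice, 6 were C57BL/6NCrl (B6NCrl) and 1, replicate 14, came from Taconic and is called a KO animal in the study's methods. Genotype at the insertion, sex, age and batch are not in the labels. Apart from replicate 14, supplier and phenotype split the mice the same way and cannot be told apart. Nothing in the labels says how the RNA of different mice was handled beyond the shared kit, so p-values measure the spread between these 12 thyroids. Total counts were 20170500 to 23319948 in affected and 11434901 to 22401136 in unaffected mice. A whole thyroid mixes cell types, and a change in the number of cells of a type cannot be told from a change in RNA per cell.

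The tissue was checked against 10 markers of thyroid follicular cells, whose sum, most of it *Tg*, was 101227 to 256672 CPM (counts scaled to the library total) in affected and 210961 to 304653 in unaffected mice. *Pax8* was lower in affected mice (log2 fold change -0.81, edgeR's adjusted p = 0.0158), *Slc26a4*, at 0.117 CPM on average in unaffected mice, was higher, and the other 8 did not pass the test. Of 7 macrophage markers 3 rose (*Cd68*, *Mrc1* and *Csf1r*, median of the 7 at 0.68), as did *Dcn* and *Pdgfra* of 6 fibroblast markers. *Ret* of 5 C cell markers and *Kdr* of 6 endothelial markers fell. The median was -0.33 over the 4 C cell markers tested. Over the 6 endothelial markers it was 0.19, with 4 of them above 0. The part of these shifts in the values of the 38 genes was not tested.

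Several libraries stood apart by markers of other cells. Unaffected replicate 23 held genes of mucous salivary gland at a summed 39212 CPM over 7 genes chosen after the data were seen, against at most 182 in every other library. Affected replicate 6 held skeletal muscle markers at a summed 98339 CPM over 8 genes, against 22.3 to 38769 in the unaffected mice. Unaffected replicates 14 and 21 held T cell markers at a summed 337 and 330 CPM and proliferation markers at 111 and 84.4 CPM, against at most 5.49 and 9.77 CPM in the other unaffected mice. Affected replicate 3 held cartilage markers at 384 CPM, against at most 11.4 in unaffected mice. The counts below are also given without the libraries that touch them most.

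All 38 genes passed the filter on low counts, and 25 of them (65.8%) were higher in affected mice at an adjusted p under 0.05 in edgeR's quasi-likelihood test, while 0 were lower. Over all 19661 genes tested, 7.63% were higher and 6.1% lower. At an unadjusted p under 0.05 the count of lower genes was also 0, as it was by DESeq2. DESeq2 called 29 of the 38 higher (10.4% of all genes), the 25 with *Sec23b*, *Mia3*, *Kdelr3* and *Copg1*. Values were below 0 in edgeR's test for *Sec31b* and *Copg2* only, with adjusted p of 0.658 and 0.814. The median log2 fold change of the 38 was 0.37, against 0.01 over all genes tested, and 36 were above 0. For 13 of the 38, the lowest affected mouse was above the highest unaffected mouse, which held for 3.78% of all genes tested. The opposite, all affected mice below, held for 0 of the 38 and 3.36% of all genes. Without unaffected replicate 23 the count without overlap was 21, and without it and affected replicate 6, a setting added after the data were seen, it was 24, with 29 genes higher (8.21% of all genes) and 1, *Sec31b*, lower (5.33% of all genes). Without unaffected replicates 14 and 21, also added after the data were seen, 18 were higher (5.61% of all genes), 0 lower (4% of all genes) and 15 without overlap. *Sec24a*, *Sec31a*, *Sec16a*, *Preb*, *Copb2*, *Copz1* and *Arf1* then fell short, with adjusted p between 0.0558 and 0.101 by edgeR. Fewer mice make a lack of overlap easier to reach. Its share over all genes was not counted with mice left out, so these counts have no background. By role, the median log2 fold change was 0.92 for the 3 p24 proteins, 0.91 for the 4 cargo receptors and 0.57 for KDEL receptors. It was 0.40 for ARF GTPases and 0.39 for organizers of exit sites. The COPI coat had 0.30 and the COPII coat with Sar1 0.25. Other p24 genes and other cargo receptors with export helpers, described below, had lower medians of 0.18 and 0.30. Differences between these groups of genes were not tested.

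**Figure D1:**
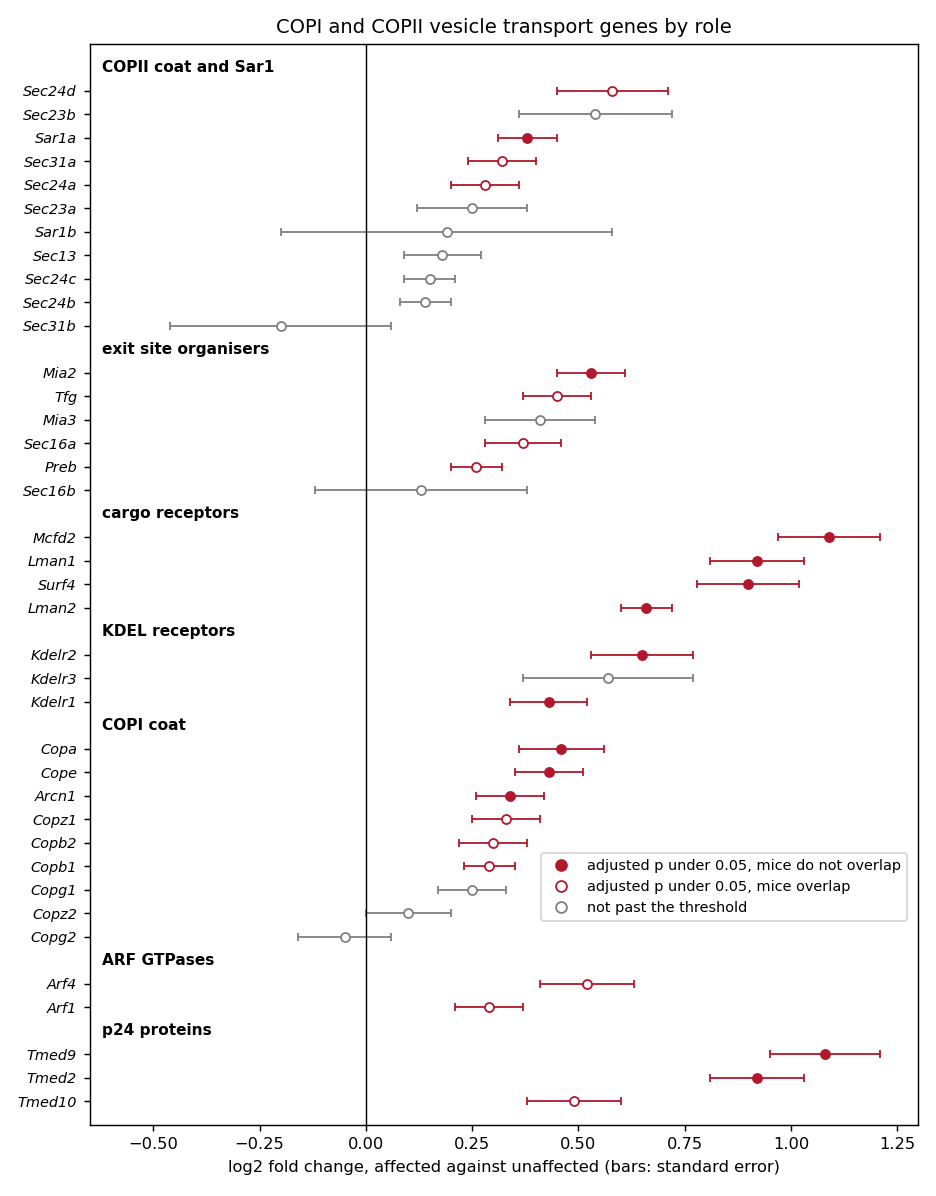
Log2 fold change of each of the 38 genes, affected (n = 5) against unaffected (n = 7) mice, with its standard error as a bar and genes ordered within roles. Red marks the 25 genes with an adjusted p under 0.05 and filled symbols the 13 whose groups of mice did not overlap; only *Sec31b* and *Copg2* sit left of 0.

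Cargo receptors recognize soluble proteins inside the endoplasmic reticulum and connect them to the COPII coat. All 4 rose with no overlap between the groups. *Mcfd2* (ENSMUSG00000024150, chr17:87254443-87265935, minus strand, GRCm38) encodes the soluble partner of LMAN1, and the pair is known for carrying coagulation factors. Its level in affected replicates 1, 3, 4, 5 and 6 was 58.9, 85.7, 87, 84.2 and 56.6 CPM, and in unaffected mice it ran from 30.8 over a median of 34.5 to 39.4 CPM. Replicates 1 and 6 were the lowest affected mice and still lay above every unaffected mouse. Mean levels were 74.5 ± 15.3 CPM (SD, n = 5) and 35 ± 3.16 CPM (SD, n = 7), a log2 fold change of 1.09 ± 0.12 (SE, edgeR's adjusted p = 0.000167), the largest of the 38. *Lman1* (ENSMUSG00000041891, chr18:65980738-66022580, minus strand), the mannose lectin of that pair, was at 126, 164, 196, 173 and 144 CPM in the 5 affected mice in the same order. Unaffected mice held 70.4 to 97.1 CPM with a median of 86.4. The affected mice were again all above, with replicate 1 lowest and replicate 4 highest, and the log2 fold change was 0.92 ± 0.11 (SE, edgeR's adjusted p = 0.000289).

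*Surf4* (ENSMUSG00000014867, chr2:26920040-26933928, minus strand) encodes a membrane receptor for soluble cargo that cycles between the endoplasmic reticulum and the Golgi. The affected mice held 147, 224, 216, 207 and 154 CPM, and the unaffected mice 91.9 to 126 CPM around a median of 96.3. The highest unaffected value belonged to replicate 23, and the affected values fell into a lower pair, replicates 1 and 6, and 3 higher mice. The log2 fold change was 0.90 ± 0.12 (SE, edgeR's adjusted p = 0.000583). *Lman2* (ENSMUSG00000021484, chr13:55343833-55362783, minus strand), a lectin of the same family as LMAN1, showed 130, 138, 139, 150 and 125 CPM in affected mice. In unaffected mice it ranged from 80.8 to 94.9 CPM with a median of 87.1. Spread was small in both groups, with an SD of 9.46 CPM around 137 CPM and of 4.76 CPM around 86.5 CPM, and the gene had the smallest adjusted p of the 38 (log2 fold change 0.66 ± 0.06 SE, edgeR's adjusted p = 6.66e-05).

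The p24 proteins are transmembrane proteins of COPI and COPII vesicles that sort lipid-anchored proteins and bind coat subunits. *Tmed9* (ENSMUSG00000058569, chr13:55573732-55597697, plus strand) was at 58.8, 85.2, 85.9, 82.5 and 57.5 CPM in affected mice. The unaffected mice lay between 30.7 and 44.3 CPM with a median of 33.7, so the groups did not overlap. The log2 fold change was 1.08 ± 0.13 (SE, edgeR's adjusted p = 0.000251). *Tmed2* (ENSMUSG00000029390, chr5:124540695-124550506, plus strand) was at 247, 317, 373, 343 and 251 CPM in affected mice and at 151 to 192 CPM, median 156, in unaffected mice. No affected mouse reached down to the unaffected range, whose top was replicate 23. Its log2 fold change was 0.92 ± 0.11 (SE, edgeR's adjusted p = 0.000274). *Tmed10* (ENSMUSG00000021248, chr12:85340614-85374847, minus strand) showed 215, 284, 325, 291 and 230 CPM in affected and 164 to 221 CPM, median 193, in unaffected mice. Affected replicate 1 fell below unaffected replicate 23, and all other affected mice were above the unaffected range. Its log2 fold change of 0.49 ± 0.11 (SE, edgeR's adjusted p = 0.0125) was the smallest of the p24 members. Per length, *Tmed2* and *Tmed10* were the most abundant of the 38 genes in affected mice, with 162 ± 36.1 and 138 ± 23.9 FPKM (SD, n = 5). The difference between these genes, measured in the same mice, was not tested.

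KDEL receptors bind chaperones that leave the endoplasmic reticulum and return them in COPI vesicles. *Kdelr2* (ENSMUSG00000079111, chr5:143403838-143421901, plus strand) was at 60.9, 83, 87.7, 86 and 57.2 CPM in affected mice and at 41.5 to 54.4 CPM, median 47.1, in unaffected mice. The lowest affected mouse, replicate 6, lay just above the highest unaffected mouse, replicate 23. Its log2 fold change was 0.65 ± 0.12 (SE, edgeR's adjusted p = 0.00347). *Kdelr1* also rose without overlap, by 0.43 on the log2 scale (edgeR's adjusted p = 0.00747). *Kdelr3*, the lowest of the receptors per length at 6.44 ± 1.72 FPKM in affected mice, had a log2 fold change of 0.57 and an adjusted p of 0.0715. Its unaffected range of 4.76 to 9.38 CPM was set at the top by replicate 23, and the gene passed the test without that mouse (0.72, edgeR's adjusted p = 0.0136) or without affected replicate 6 (0.71, edgeR's adjusted p = 0.0213).

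**Figure D2:**
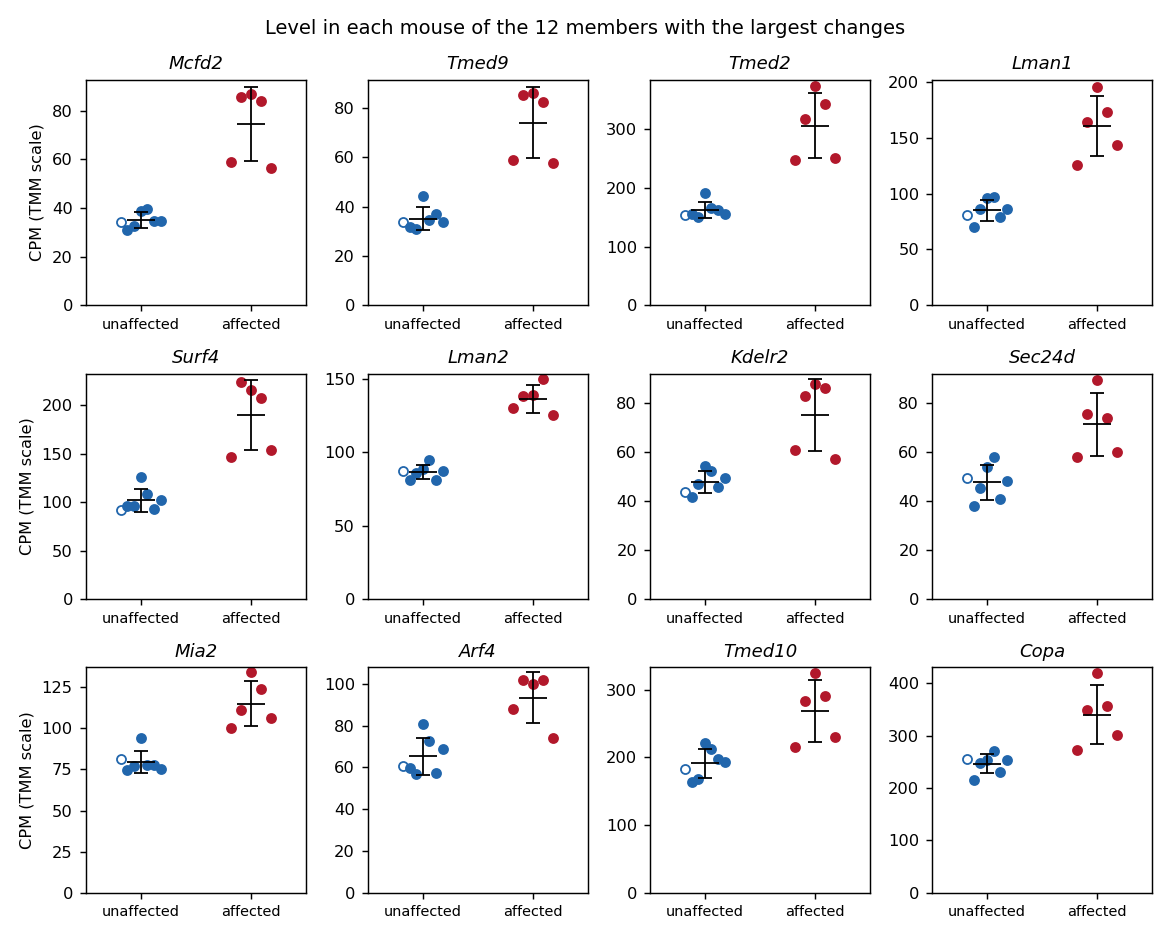
CPM on the TMM scale (vertical axes from 0) in each mouse for the 12 genes with the largest changes past the threshold. Points are mice, the open circle is the unaffected mouse from Taconic, and bars give the mean and SD; affected replicates are drawn in the order 1, 3, 4, 5 and 6, and in all 12 panels the first and the last are the lowest of their group.

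The COPII coat consists of an inner layer, the SEC23 and SEC24 proteins, in which SEC24 binds cargo, and an outer cage of SEC13 and SEC31. Of the 11 genes for the coat and Sar1, 4 rose. *Sec24d* (ENSMUSG00000039234, chr3:123267455-123365641, plus strand) had the largest change, with 57.9, 75.4, 89.5, 74 and 60 CPM in affected mice. Unaffected mice held 37.8 to 58.2 CPM with a median of 48.1. Affected replicate 1 lay slightly below the highest unaffected mouse, and the other affected mice lay above all unaffected mice. The log2 fold change was 0.58 ± 0.13 (SE, edgeR's adjusted p = 0.0102). *Sar1a*, the more abundant Sar1 gene per length at 46.6 ± 3.31 FPKM in affected mice, rose by 0.38 on the log2 scale (adjusted p = 0.00316) with no overlap. *Sec31a* rose by 0.32 (adjusted p = 0.0232) and *Sec24a* by 0.28 (adjusted p = 0.03).

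The other 7 coat genes did not pass the test. *Sec23b* had a log2 fold change of 0.54 (adjusted p = 0.0731) with a wide spread among affected mice, from 40.6 to 75.4 CPM. *Sec23a* was at 0.25 (adjusted p = 0.218), *Sec13* at 0.18 (adjusted p = 0.196), *Sec24c* at 0.15 (adjusted p = 0.136) and *Sec24b* at 0.14 (adjusted p = 0.118). For *Sar1b* and *Sec31b*, the minor paralogs of *Sar1a* and *Sec31a*, 1 affected library stood far above the others. In affected mice *Sar1b* was at 29.2, 19.8, 17.9, 30 and 83.3 CPM and *Sec31b* at 7.34, 4.55, 5.21, 5.95 and 14.6 CPM. Both highest values belonged to affected replicate 6, the library with the highest muscle markers. Among unaffected mice both genes were highest in replicate 22, at 47.4 and 11.1 CPM, which also held the most muscle markers of that group. The part of muscle in these values was not tested. With that mouse, the log2 fold changes were 0.19 (adjusted p = 0.79) and -0.20 (adjusted p = 0.658). Without it, *Sar1b* was at -0.37, and *Sec31b*, at -0.57 (edgeR's adjusted p = 0.0334), was the only one of the 38 genes called lower. That fit still held unaffected mice with summed muscle markers up to 38769 CPM, against 102 to 4066 CPM in the remaining affected mice.

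Exit sites are organized by SEC16, by TFG, which holds the sites together, by PREB, the exchange factor that loads Sar1 with GTP, and by the MIA family, which helps to load bulky cargo such as procollagen. *Mia2* (ENSMUSG00000021000, chr12:59095799-59191583, plus strand) was at 100, 111, 134, 124 and 106 CPM in affected mice and at 74.4 to 94.4 CPM, median 77.6, in unaffected mice. The groups did not overlap, with unaffected replicate 23 nearest to the affected mice. Its log2 fold change was 0.53 ± 0.08 (SE, edgeR's adjusted p = 0.00154). *Tfg* (0.45, adjusted p = 0.00396), *Sec16a* (0.37, adjusted p = 0.0144) and *Preb* (0.26, adjusted p = 0.0151) also rose. Of the exonic bases of *Preb*, 21.85% overlap *Abhd1* on the opposite strand, and whether the counting used strand is not stated. *Mia3* was at 0.41 (adjusted p = 0.0623), where unaffected replicate 23 held 99.3 CPM and the other unaffected mice at most 65, and it passed the test without that mouse (0.55, edgeR's adjusted p = 0.000904) or without affected replicate 1 (0.47, edgeR's adjusted p = 0.0462). *Sec16b*, the least abundant of the 38 per length in affected mice at 1.03 ± 0.245 FPKM, was at 0.13 (adjusted p = 0.787), at 0.41 (edgeR's adjusted p = 0.0995) without unaffected replicate 23, and at -0.02 without unaffected replicates 14 and 21.

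COPI is a coat of 7 kinds of subunit, and its genes here number 9 because the gamma and zeta subunits have a pair of genes each. Of these, 6 rose by similar amounts. *Copa* (ENSMUSG00000026553, chr1:172082529-172122330, plus strand), which encodes the alpha subunit that reads retrieval signals of membrane proteins, was at 272, 348, 420, 356 and 302 CPM in affected mice. In unaffected mice it was at 216 to 271 CPM with a median of 253, and the lowest affected and highest unaffected mouse nearly met. The log2 fold change was 0.46 ± 0.10 (SE, edgeR's adjusted p = 0.00938). Opposite-strand genes overlap 9.58% of its exonic bases. *Cope* rose by 0.43 (adjusted p = 0.00329) and *Arcn1*, the delta subunit, by 0.34 (adjusted p = 0.0103), both without overlap. *Copz1* rose by 0.33 (adjusted p = 0.0197), *Copb2* by 0.30 (adjusted p = 0.0226) and *Copb1* by 0.29 (adjusted p = 0.00912).

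The remaining COPI genes, both gamma genes and the second zeta gene, did not pass the test. *Copg1* was at 0.25 (adjusted p = 0.0591), *Copz2* at 0.10 (adjusted p = 0.55, and 0.18 without unaffected replicate 23) and *Copg2* at -0.05 (adjusted p = 0.814). *Mest*, on the opposite strand, overlaps 17.81% of the exonic bases of *Copg2*. The ARF GTPases that recruit the coat both rose. *Arf4* (ENSMUSG00000021877, chr14:26638074-26665084, plus strand) was at 88.1, 102, 100, 102 and 74.2 CPM in affected mice and at 56.8 to 80.7 CPM, median 60.7, in unaffected mice. Affected replicate 6 lay below unaffected replicate 23, the only crossing. Its log2 fold change was 0.52 ± 0.11 (SE, edgeR's adjusted p = 0.00839), and opposite-strand genes cover 17.68% of its exonic bases. *Arf1*, which was at 117 ± 16.4 FPKM (SD, n = 5) in affected mice, rose by 0.29 (adjusted p = 0.0309).

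The affected mice did not move equally. Over the 25 genes that rose, replicate 4 was the highest affected mouse for 15, replicate 5 for 7 and replicate 3 for 3. Replicate 1 was the lowest for 16 and replicate 6 for 9. The median ratio to the unaffected mean was 1.18, 1.44, 1.54, 1.44 and 1.22 in affected replicates 1, 3, 4, 5 and 6. *Hspa5*, a chaperone that KDEL receptors retrieve, is not one of the 38 genes. It was at 1095, 2318, 1744, 2176 and 942 CPM in the same mice and at 146 to 339 CPM in unaffected mice. Replicates 1 and 6 were lowest for both. They also had the lowest summed follicular cell markers, 101227 and 119789 CPM, against 184138 to 256672 CPM in the other affected mice. The part of follicular cell content in these differences was not tested. Among unaffected mice, replicate 23 was highest for 16 of the 25 genes, with a median ratio of 1.14, and replicate 21 lowest for 12, with a median ratio of 0.916. The part of the salivary gland genes in the values of replicate 23 was not tested. Affected replicate 1 had B cell, plasma cell and adipose markers at a summed 116, 218 and 2984 CPM, against at most 9.33, 48.7 and 963 CPM in unaffected mice. Affected replicate 4 had parathyroid markers at a summed 29.4 CPM, against 1803 or more in unaffected mice. The part of these cells in the values of the 38 genes was not tested.

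**Figure D3:**
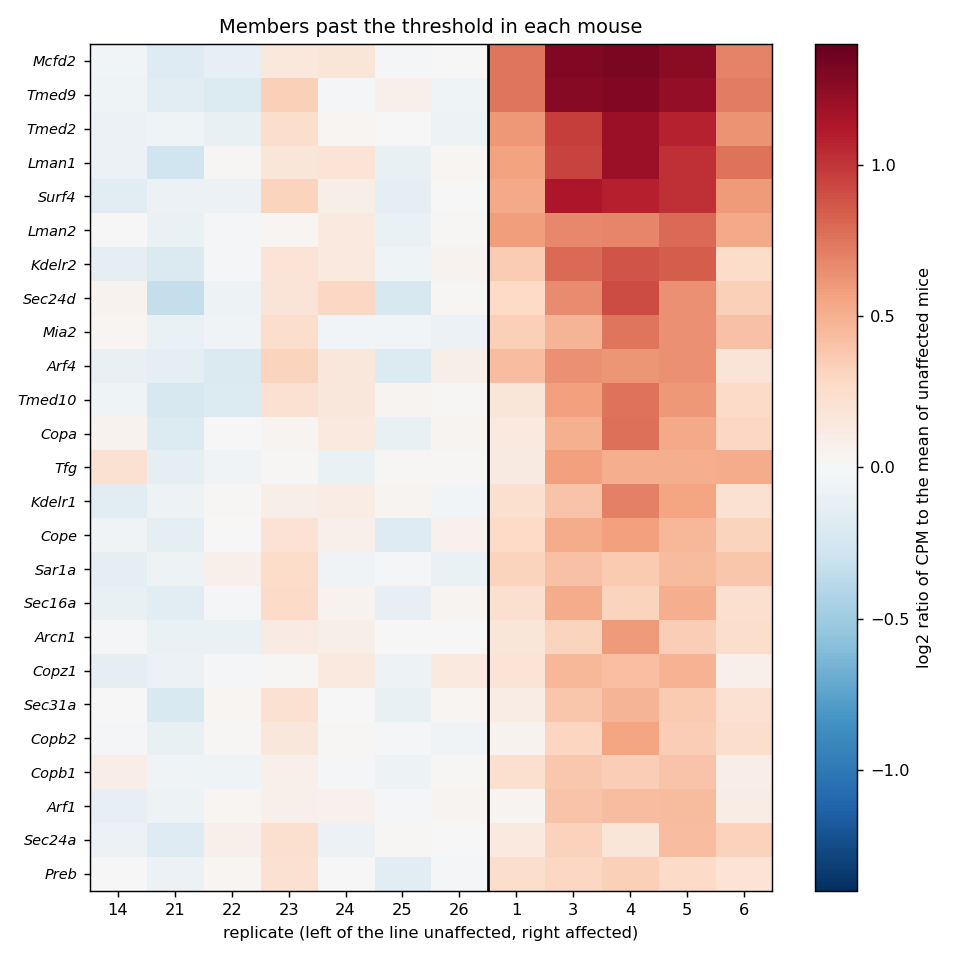
Log2 ratio of CPM to the mean of unaffected mice for the 25 genes past the threshold (rows, largest change on top) in each mouse (columns, numbered by replicate), with red for above and blue for below that mean. Affected replicates 3, 4 and 5 are the most deeply colored, replicates 1 and 6 less so, and unaffected replicate 23 is the reddest of the unaffected mice.

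The unaffected mouse from Taconic, 1 of the pair with T cell markers, is the only control from the supplier of the affected mice. The study's methods call it a KO animal without naming the gene. With the B6NCrl mean set to 0 and the affected mean to 1, its median position over the 25 genes was -0.07, with a range of -0.39 to 0.46. For 0 of the 25 it was nearer to the affected mean. This mouse was among the controls when the 25 genes were called. Genes where it lay near the affected mice were thus less likely to be among them, and its position is not an independent comparison. With only the 6 B6NCrl mice as controls, 23 of the 38 genes were higher (6.14% of all genes) and 0 lower (4.95% of all genes). Of the 38, 15 did not overlap in this setting, for which the share over all genes was not counted.

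Within families of paralogs, 4 of 14 shares changed. Shares of summed FPKM, a measure per length, were compared for 14 paralogs with a two-sided exact permutation test on the 12 mice, whose smallest p is 0.00126, and adjusted over these 14. Of the Sec24 genes, *Sec24d* took 21.9%, 26.1%, 26.8%, 24.6% and 21.6% in affected mice, and the unaffected mice lay between 16.2% and 21.1%. All affected mice were above, though the lowest by little. The mean share was 24.2% ± 2.36 (SD, n = 5) against 19% ± 1.71 (SD, n = 7), with exact p = 0.00126 and adjusted p = 0.00884. *Sec24c*, the largest part of the family, went from 40.5% ± 1.68 in unaffected to 37% ± 1.29 in affected mice (exact p = 0.00379, adjusted p = 0.0177), with overlap. The shares of *Sec24a* and *Sec24b* had adjusted p of 0.667 and 0.0648.

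Among KDEL receptors, *Kdelr2* made up 39.6%, 43.7%, 41%, 42.6% and 39.5% in affected and 36.3% to 39.4% in unaffected mice. The groups did not overlap but nearly touched (mean difference 3.24 percentage points, exact p = 0.00126, adjusted p = 0.00884). *Kdelr1* held 52.3% ± 2.59 in affected and 55.7% ± 2.05 in unaffected mice (adjusted p = 0.0648 by the exact test). The share of *Copg2* in the gamma pair was 41.5% ± 1.98 in affected and 45.8% ± 1.92 in unaffected mice (exact p = 0.00631, adjusted p = 0.0221). The changes of *Sec24c* and *Copg2* fell short without affected replicate 3 (adjusted p = 0.0742 and 0.0566 by the exact test) or unaffected replicate 25 (adjusted p = 0.053 for both), while those of *Sec24d* and *Kdelr2* passed without either mouse. The remaining families, Sec16, Sec23, Sec31, Sar1, Mia2 with Mia3 and Copz, had adjusted p of 0.387 or more. Shares within a family sum to 100, so a gain of one member lowers the others, and how the counting divided reads between paralogs is not stated.

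**Figure D4:**
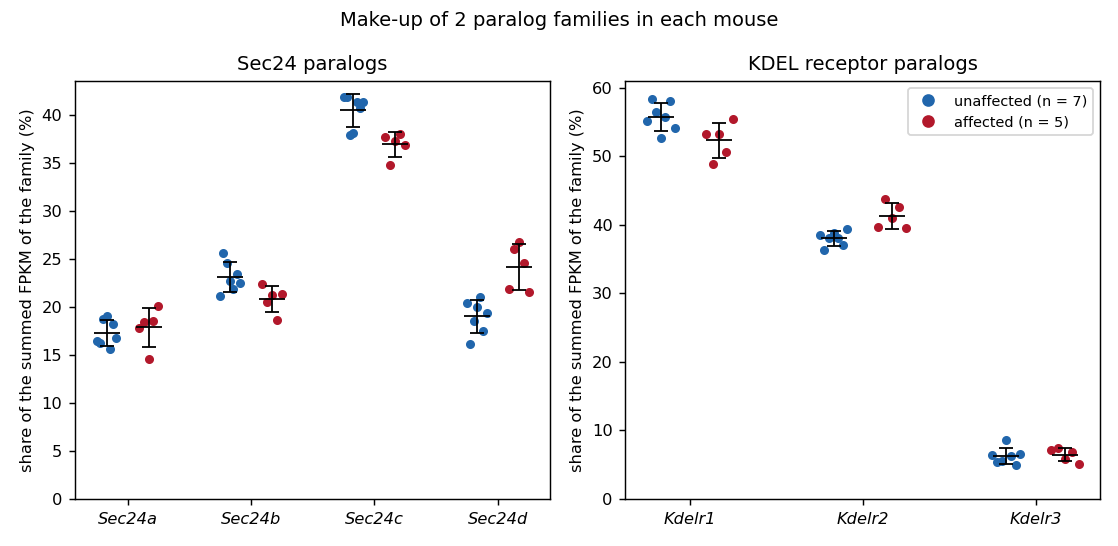
Share of each paralog in the summed FPKM of its family (%, axes from 0) for the Sec24 genes (left) and KDEL receptors (right), with mice as points and the mean and SD as bars. The affected mice lie above the unaffected mice for *Sec24d* and *Kdelr2* without overlap, and lower on average for *Sec24c*.

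The length of the transcripts behind the counts can be read from the count, the FPKM value and the library total. For 3690 genes with a single transcript this length lay between 0.999 and 1.001 times the annotated exon length. It was tested for the 34 members with more than 1 annotated transcript and no fewer than 100 counts in any library. *Copg1* alone passed, with 3627 ± 73.4 bp (SD, n = 5) in affected and 3486 ± 74.6 bp (SD, n = 7) in unaffected mice, 4.04% longer and without overlap (exact two-sided permutation test, p = 0.00126, adjusted p = 0.0429, the smallest possible here). The affected range was 3558 to 3729 bp and the unaffected range 3331 to 3555 bp, which nearly touched. *Gm26636*, on the opposite strand, overlaps 8.55% of the exonic bases of *Copg1*, and the part of such reads in its length was not tested. Over 9084 genes, 1.44% differed by at least 2% without overlap, which held for 1 of the 34 members, and 1.09% by at least as much as *Copg1*. The remaining 33 members showed no change in length past the threshold.

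The promoters were searched because these genes moved together. RefSeq windows on GRCm38.p6, from 250 bases before to 50 after the annotated start, were matched by symbol for 34 of the 38 genes. On both strands, 3 motifs known from stress of the endoplasmic reticulum were searched. ERSE, the element of ATF6 with NF-Y, is CCAAT and CCACG with any 9 bases between them. ERSE-II is ATTGG and CCACG with any single base between them. UPRE, a core bound by XBP1 and ATF6, is TGACGTGG, whose other strand begins with the CCACG of the other motifs. A gene counted when any of its windows held the motif, and 27025 genes had 32851 windows. UPRE was found for 7 of the 34 genes (20.6%), against 0.714% of the 27025 genes and 0.963% of tested genes with a window. It was found for 4 of the 21 genes that rose and for 3 of the 13 that did not pass the test. ERSE and ERSE-II were found for 0 of the 34 genes, against 0.137% and 0.0444% of the 27025 genes. The 30 bases around the 7 sites are shown 5′ to 3′ on the strand of the gene, with the motif in capitals (CCACGTCA is the same motif on the other strand).
Sec24d, chr3:123267459-123267488, plus strand: gcccgggcgccTGACGTGGcactagcaacc
Copb1, chr7:114254690-114254719, minus strand: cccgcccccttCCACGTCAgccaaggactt
Copb2, chr9:98563713-98563742, plus strand: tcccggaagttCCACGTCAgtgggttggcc
Arf1, chr11:59228228-59228257, minus strand: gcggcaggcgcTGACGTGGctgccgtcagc
Sec23a, chr12:59011993-59012022, minus strand: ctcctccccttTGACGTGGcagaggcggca
Sec16b, chr1:157506741-157506770, plus strand: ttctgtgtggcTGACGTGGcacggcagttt
Kdelr3, chr15:79516367-79516396, plus strand: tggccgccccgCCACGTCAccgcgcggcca
All 7 sites lay between 44 bases before and 29 bases after the RefSeq start. The first 4 genes rose, by 0.58, 0.29, 0.30 and 0.29 on the log2 scale, and the last 3 had adjusted p of 0.218, 0.787 and 0.0715. A match is a description of the letters and not evidence of binding.

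Around the 38 genes, 80 further genes of the same route were read from 6 lists. Of the 76 that passed the filter, 26 (34.2%) rose and 0 fell, against 7.63% and 6.1% of all genes tested. The same background applies to each of the 6 lists. By DESeq2 0 fell as well, against 7.89% of all genes. At an unadjusted p under 0.05, 1 was lower, and the median log2 fold change was 0.20. Among the other p24 genes, 2 of 5 rose, *Tmed3* by 1.20 (adjusted p = 0.00181) and *Tmed5* by 0.76 (adjusted p = 0.00801). The median of the 5 was 0.18. Of other cargo receptors and export helpers, 7 of 13 rose, led by *Erp44* (0.95, adjusted p = 0.000944), a chaperone that retrieves its clients from the early Golgi, and by *Ergic1* and *Yif1b* (both 0.71). *Cnih1*, a cornichon cargo receptor, followed with 0.34, and the median of the 13 was 0.30. Of 10 ARF activators, ARF GTPase-activating proteins and other ARFs, 1 rose, *Arfgap3* (0.52, adjusted p = 0.0195). That is 10%, near the background of 7.63%.

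Tethers, which catch arriving vesicles, had 8 of 22 genes higher. *Uso1*, the tether p115, rose by 0.84 (adjusted p = 0.000131), *Gorasp2*, a Golgi stacking protein, by 0.73, *Rint1* by 0.38 and *Trappc4* by 0.37. Of the SNAREs and fusion factors, which merge vesicle and target membranes, 5 of 18 rose. The SNAREs *Bet1*, *Sec22b* and *Gosr2* rose by 0.70, 0.43 and 0.37 and the fusion factor *Napa* by 0.30. Of 8 transcription factors of secretory genes, 3 rose, namely *Bhlha15* (1.35, adjusted p = 0.0025), *Atf6* (0.71, adjusted p = 0.000583) and *Creb3* (0.42, adjusted p = 0.0402). *Xbp1* was at 0.27 (adjusted p = 0.152), and its spliced form cannot be seen in counts per gene.

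Lists for other vesicle routes had smaller medians. Clathrin and its adaptors had 2 of 24 genes higher (8.33%, near the background of 7.63%) and a median log2 fold change of 0.09, with *Ap2a2* at 0.28 (adjusted p = 0.0112) and *Ap3m1* at 0.25 (adjusted p = 0.0372). Retromer and ESCRT genes, which serve endosomes, had 3 of 26 higher (11.5%) and a median of 0.11, with *Chmp2a* rising by 0.36, *Chmp2b* by 0.27 and *Chmp4b* by 0.26. This count depended on the tool, with 7 of 26 (26.9%) higher by DESeq2, against 10.4% of all genes, and 0 when counts were scaled to totals without *Tg*. Differences between the lists were not tested.

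**Figure D5:**
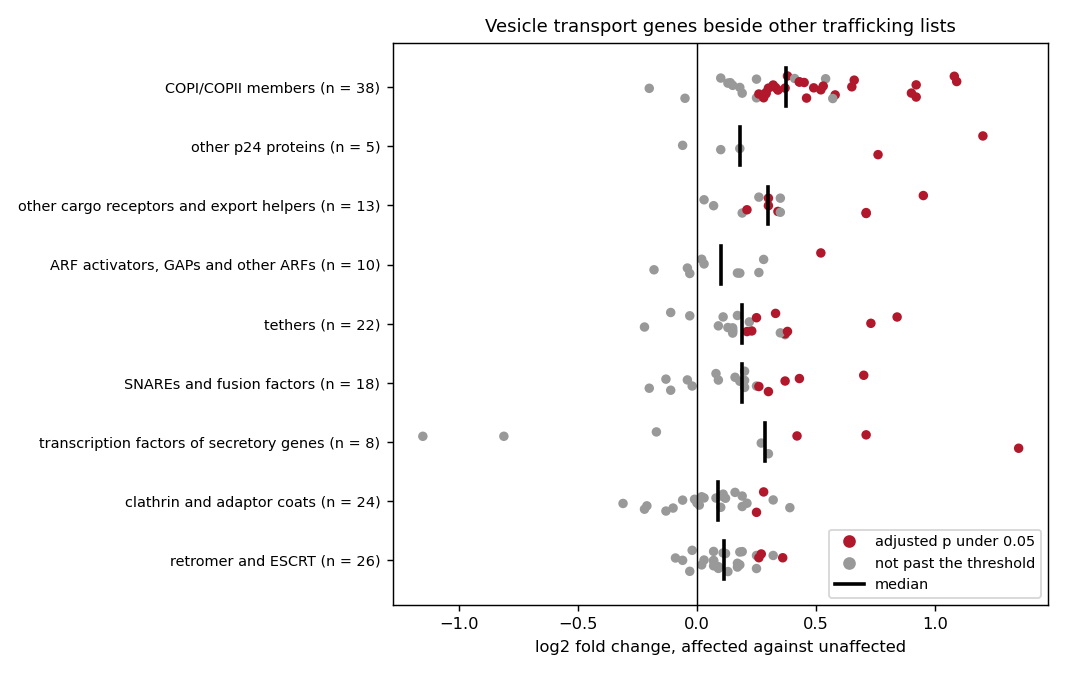
Log2 fold change of each tested gene, affected against unaffected mice, for the 38 COPI and COPII genes and 8 other lists (rows, n is the number of genes tested), with red for an adjusted p under 0.05 and a black line at the median. The medians are 0.37 for the 38 genes, 0.09 for clathrin and adaptor coats and 0.11 for retromer and ESCRT.

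Leaving out 1 mouse ended the call of 5 of the 25 genes. *Sec24a* fell short without affected replicate 3 or 5 or without unaffected replicate 14, 21, 24 or 26, and *Arf1* without the same mice except unaffected replicate 24. *Sec31a* and *Copz1* fell short without affected replicate 3 or 5 and *Copb2* without affected replicate 5. In the other direction, *Sec23b* and *Copg1* passed without affected replicate 1, affected replicate 6 or unaffected replicate 23, and *Copg1* also without unaffected replicate 24.

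The number of genes called depended on how libraries were scaled. When counts were scaled to library totals without *Tg*, the median over all genes moved from 0.01 to -0.13 and 8 of the 38 genes (21.1%) were higher and 0 lower, against 3.07% and 8.7% of all genes. Those 8 were *Mia2*, *Lman1*, *Lman2*, *Mcfd2*, *Surf4*, *Kdelr2*, *Tmed2* and *Tmed9*. The distance between the median of the 38 and that of all genes was 0.38 under this scaling and 0.37 under the main one. Scaling moves all genes by about the same amount, so this distance was bound to stay nearly the same. These 8 genes passed the threshold in the test reported here and in all 24 alternatives.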

How the data were processed

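The authors aligned the reads with OSA4 and quantified genes in OmicSoft Array Studio. They deposited estimated counts per gene, not normalized, and FPKM values, which are scaled to length and library total. Their methods name the reference Mouse.B39 (Ensembl.R96). Of 55536 gene identifiers, 55450 are in GENCODE release M21 (GRCm38), all with the same coordinates, so that build is used. Whether counting used strand is not stated in the sources used here. The table marks 25349 genes as confounded, 19 of the 38 among them.

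Counts were rounded, filtered (filterByExpr, minimum count 10) and tested with edgeR 4.0.16 in R 4.3.3 (TMM, robust quasi-likelihood test, 5 affected against 7 unaffected mice, no covariates). P-values were adjusted by Benjamini-Hochberg over 19661 genes at a threshold of 0.05. CPM values are on the TMM scale, log2 fold changes are those of the fitted models, and errors between mice are SD. Counts behind the 38 genes ran from 36 to 8246 per mouse.

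Per-mouse values are given for the 12 genes with the largest changes past the threshold, and at most 4 genes are named per other list. The 38 genes and all lists were chosen with earlier results of these data known. Alternatives were DESeq2 1.42.0, other scalings and filters, limma 3.58.1 on FPKM (log2 with a pseudocount of 1 or 0.1, genes averaging 0.5 FPKM or more, or unfiltered), B6NCrl controls only, and leaving out mice. The test was checked on simulated counts.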

Additional observations from a re-analysis of the deposited data

Results flagged for a closer look

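Of 106 groups of values checked with Dixon's test, 14 held a mouse far from the others of its group, where chance flags about 1 in 20. Unaffected replicate 23 was the highest unaffected mouse in 8 of the 14: *Sec16a* at 158 CPM (next mouse 136), *Sec16b* at 7.86 CPM (3.91), *Mia2* at 94.4 CPM (81.1), *Mia3* at 99.3 CPM (65), *Kdelr3* at 9.38 CPM (6.55), *Copb2* at 115 CPM (104), *Tmed2* at 192 CPM (166) and the share of *Kdelr3* at 8.66% (6.49%). The same library held the salivary gland genes.

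Affected replicate 6 was the highest affected mouse for *Sar1b* at 83.3 CPM (next mouse 30) and *Sec31b* at 14.6 CPM (7.34). Affected replicate 1 was the lowest for *Tfg* at 30.2 CPM (39.1) and *Mia3* at 72.6 CPM (89.3). The unaffected mouse from Taconic was the highest unaffected mouse for *Tfg* at 31.9 CPM (28). The implied transcript length of *Copg1* in unaffected replicate 21 was the shortest at 3331 bp (3461 bp).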

How the results depend on the processing

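Across the alternatives the 38 genes numbered 8 to 29 higher and 0 or 1 lower. Of all genes tested, the alternatives called 1.95% to 10.4% higher and 1.68% to 8.7% lower. Counts without overlap under the alternatives have no share over all genes beside them. Scaling to totals without *Tg* gave 8 higher, 4 without overlap and 10 genes higher in the other lists of the route (26 in the test reported here). It called 3.07% of all genes higher. *Sar1b*, *Sec16b* and *Copz2* changed sign there, to -0.01, -0.01 and -0.04. All 3 FPKM fits gave 8 genes without overlap, and without a filter 17 genes of the other lists were higher. Leaving out each mouse in turn gave 20 to 29 genes higher (5.02% to 9.38% of all genes). It gave 0 to 1 lower (3.81% to 7.61% of all genes), *Sec31b*, without affected replicate 6. It gave 13 to 21 without overlap (21 without unaffected replicate 23). It gave 2 to 6 paralog shares past the threshold, with 2 without affected replicate 3 or unaffected replicate 25 and 6 without affected replicate 6. It gave 0 implied lengths past the threshold, as did B6NCrl controls alone, where a single length at the smallest p of those smaller designs could not pass after adjustment. In these fits the log2 fold change of *Copg2* ran from -0.12 to 0.02 (0.02 without affected replicate 1 or 6) and that of *Sar1b* from -0.37 (without affected replicate 6) to 0.39. The difference in the share of *Kdelr3* ran from -0.0442 (without affected replicate 3) to 0.622 points, and that of *Sec16b* from -0.893 to 0.141 points (without unaffected replicate 23). Without both libraries that stand apart, added after the data were seen, 29 genes were higher, 1 lower and 24 without overlap, with *Sar1b* at -0.40 and *Copg2* at 0.03. Without unaffected replicates 14 and 21, also added then, 18 were higher, 0 lower and 15 without overlap, with *Sec16b* at -0.02. Of the 25 genes that rose, 8 passed in all 24 alternatives and 0 reversed. The causes of these shifts were not tested. Of 912 values of the 38 genes under these alternatives, 813 kept their direction and side of the threshold, 68 fell short of it, 22 came to pass it and 9 changed sign. No paired analysis was possible because the groups share no replicate numbers. *Sec16b*, *Kdelr3* and *Sec31b* had as few as 36, 67 and 84 counts in a mouse, which limits what can be seen for them.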

Other observations

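*Lman1l*, a relative of *Lman1* in the list of other cargo receptors, did not pass the filter on low counts and averaged 0.00866 CPM in affected mice. In unaffected replicate 23, the library with salivary gland genes, it was at 30.4 CPM. *Creb3l1*, a transcription factor of secretory genes, was at 33 CPM in the same library, at 1.58 to 2.68 CPM in the other unaffected mice and at 2.58 to 5.68 CPM in affected mice, so the sign of its log2 fold change of -0.81 (edgeR's adjusted p = 0.564) rested on that library. Both genes were chosen after their values were seen.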
